A study of Rattus norvegicus with 6 samples.

Results

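Muscle actins and smooth muscle contractile genes were examined in stem cells cultured from rat skeletal muscle. The set was given as 10 gene symbols: Acta1, Acta2, Actc1, Actg2, Lmod1, Cnn1, Tagln, Myh11, Mylk and Myocd. In the platform annotation, 7 of these symbols name a probe set, 1 each, among 18166 named genes and 36685 probe sets. No probe set carries the names Acta2, Actc1 or Cnn1, so the smooth muscle alpha-actin, the cardiac actin and calponin have no value here. Expression was measured on Affymetrix Rat Gene 2.0 ST arrays, which read each probe set, several short oligonucleotides against the same transcript, as 1 intensity.

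All cells came from male rats and were isolated by plating. There were 6 libraries with 1 array each, titled low glucose control, high glucose control, LZ serum, OZ serum, cholesterol and fatty acid. Cholesterol was given at 100 mg/dl, carried by cyclodextrin. For the fatty acid library the lipid in the treatment label is sodium palmitate, which is saturated. No palmitate dose is stated, nor a time of exposure, a rat strain, a number of rats or a meaning for LZ and OZ, and the labels do not state whether a control held cyclodextrin or which control belongs to which lipid. Each lipid library was therefore set against both controls, and a gene's difference is the smaller of the 2 log2 differences, or 0 where they differ in sign. A gene was counted when that difference was at least 2-fold. With 1 array per group no value has an error and no test was possible: the differences are between single libraries rather than between conditions, and the number of arrays limits the precision.

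Actins form the thin filaments of muscle. Acta1 is the skeletal muscle form and Actg2 the form of visceral smooth muscle. In smooth muscle, myosin heavy chain (Myh11) pulls on actin after its light chain is phosphorylated by the kinase encoded by Mylk, while leiomodin (Lmod1) nucleates actin filaments and transgelin (Tagln) binds along them. Myocardin (Myocd) is a coactivator of serum response factor (SRF), which binds the CArG box, a DNA motif found before many genes of this kind, including actins. Cultured mesenchymal cells commonly express part of this programme as well.

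In the fatty acid library 3 of the 7 measured members, Acta1, Lmod1 and Actg2, were at least 2-fold lower than in either control (1.33% of all named genes were). Myh11 and Myocd were lower by less, Tagln was at a log2 difference of -0.04, and Mylk was higher, at 0.23. In the cholesterol library Acta1, Actg2 and Myocd were the low members, whereas Lmod1 and Myh11 lay at or above control level. No member differed by 2-fold between a serum library and a control, and few genes did: 5 to 30 of all 18166 in each direction. Among the members the widest of these differences was that of Myocd, 1.49-fold with LZ serum and 1.47-fold with OZ serum above the high glucose control. Actg2 followed, 1.37-fold lower with OZ serum than in the low glucose control.

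Acta1 had the widest range of the members, 2.43 on the log2 scale. Its intensity was 1446 in the low glucose control, 1855 in the high glucose control, 1758 with LZ serum, 1532 with OZ serum, 749 with cholesterol and 344 with fatty acid. The lipid libraries were thus the lowest, and the other libraries lay within 0.36 of each other on the log2 scale. Acta1 was 4.21-fold lower with fatty acid than in the nearer control (log2 difference -2.07). With cholesterol it was 1.93-fold lower (-0.95), just short of the threshold, and centring each array on its median took this value to -1.01. Directly compared, its level was 2.18-fold higher with cholesterol than with fatty acid.

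The promoter of Acta1 is shown because the CArG box is the motif through which SRF and myocardin are known to act on actin genes. The 250 bases before the start of transcription, from RefSeq on assembly GRCr8, lie at chr19:68784195-68784444 on the minus strand, and capitals mark matches to the CArG box, in which 6 inner bases stand between CC and GG.
Acta1: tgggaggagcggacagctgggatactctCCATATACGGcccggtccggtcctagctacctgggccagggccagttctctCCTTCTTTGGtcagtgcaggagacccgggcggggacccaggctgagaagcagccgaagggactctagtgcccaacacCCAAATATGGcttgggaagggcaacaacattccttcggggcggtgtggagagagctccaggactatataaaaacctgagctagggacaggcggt
The box nearest the start, at -94 to -85, is a full match, meaning that all 6 inner bases are A or T. The matches at -222 to -213 and -171 to -162 have 1 other inner base. Both strands were searched from 250 bases before to 50 after the start. Of 33469 such windows in the table, 1.64% hold a full match and 9.42% hold one when 1 other inner base is allowed, full matches included.

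Actg2 followed the same order of lipid libraries at a smaller size. It measured 651 in the low glucose control, 433 in the high glucose control, 515 with LZ serum, 476 with OZ serum, 302 with cholesterol and 209.8 with fatty acid. Again both lipid libraries were the lowest. The difference was 2.06-fold for fatty acid (log2 difference -1.04) and 1.43-fold for cholesterol (-0.52). The controls themselves were 1.51-fold apart, so that against the low glucose control alone the fatty acid value was 3.10-fold lower and the cholesterol value 2.15-fold lower. With an offset of 32 before log2, which damps low signals, the fatty acid difference was -0.94 and no longer reached the threshold.

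The RefSeq promoter of Actg2 is given beside that of Acta1 because both genes were low with each lipid. It lies at chr4:117594040-117594289 on the minus strand of GRCr8 and holds no match to the CArG box, with 1 other inner base allowed or not.
Actg2: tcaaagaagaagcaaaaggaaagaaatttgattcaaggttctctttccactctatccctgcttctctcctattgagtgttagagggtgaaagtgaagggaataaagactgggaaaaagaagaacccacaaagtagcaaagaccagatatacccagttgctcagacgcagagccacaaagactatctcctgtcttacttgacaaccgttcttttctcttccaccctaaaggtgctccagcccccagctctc
The start used for this window lies 10340 bases inside the outermost start of the gene in the same annotation, so another Actg2 promoter was not searched. The table holds windows for 6 of the 10 genes. Besides Acta1, Actc1 has a full match at 2 to 11 bases from its start and 3 matches with 1 other inner base before it, and Acta2 has matches with 1 other inner base at -134 to -125 and -84 to -75. Neither gene has a value on these arrays. The windows of Cnn1 and Mylk hold no match, and the Mylk window lies 36876 bases inside that gene's outermost start. No match says only that the motif's letters are not in these windows.

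Lmod1 separated the lipids. Its intensity was 1345 in the low glucose control, 1056 in the high glucose control, 1256.5 with LZ serum, 1197 with OZ serum, 1182 with cholesterol and 496 with fatty acid. The cholesterol value lay between the controls and the fatty acid value was below all other libraries. Lmod1 was 2.13-fold lower with fatty acid than in the nearer control (log2 difference -1.09), and 2.39-fold higher with cholesterol than with fatty acid, the largest direct difference among the members.

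Myh11 showed the same separation. It measured 327 in the low glucose control, 326 in the high glucose control, 364 with LZ serum, 300.5 with OZ serum, 381 with cholesterol and 181 with fatty acid. The controls were nearly equal, the cholesterol library was the highest of all and the fatty acid library the lowest. The fatty acid value was 1.80-fold lower than in the nearer control (log2 difference -0.85) and the cholesterol value 1.17-fold higher (0.22). Compared directly, the cholesterol level was 2.10-fold that of fatty acid, or 0.95 on the log2 scale with an offset of 32, which is under 2-fold.

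Tagln hardly varied. Its intensity was 12670 in the low glucose control, 11995 in the high glucose control, 12433 with LZ serum, 12357 with OZ serum, 12459 with cholesterol and 11694 with fatty acid. All values lay within 0.12 on the log2 scale. The highest value of any probe set was 18205, and whether the Tagln signal was near the top of the measurable range was not tested.

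Mylk gave a signal not far above the median of all values, 107.2. It measured 131 in the low glucose control, 128 in the high glucose control, 141 with LZ serum, 147 with OZ serum, 124 with cholesterol and 154 with fatty acid. The fatty acid library was the highest and the cholesterol library the lowest, and no other member was highest with fatty acid. The log2 differences were small, 0.23 for fatty acid and -0.05 for cholesterol, and the whole range was 0.31.

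**Figure D1:**
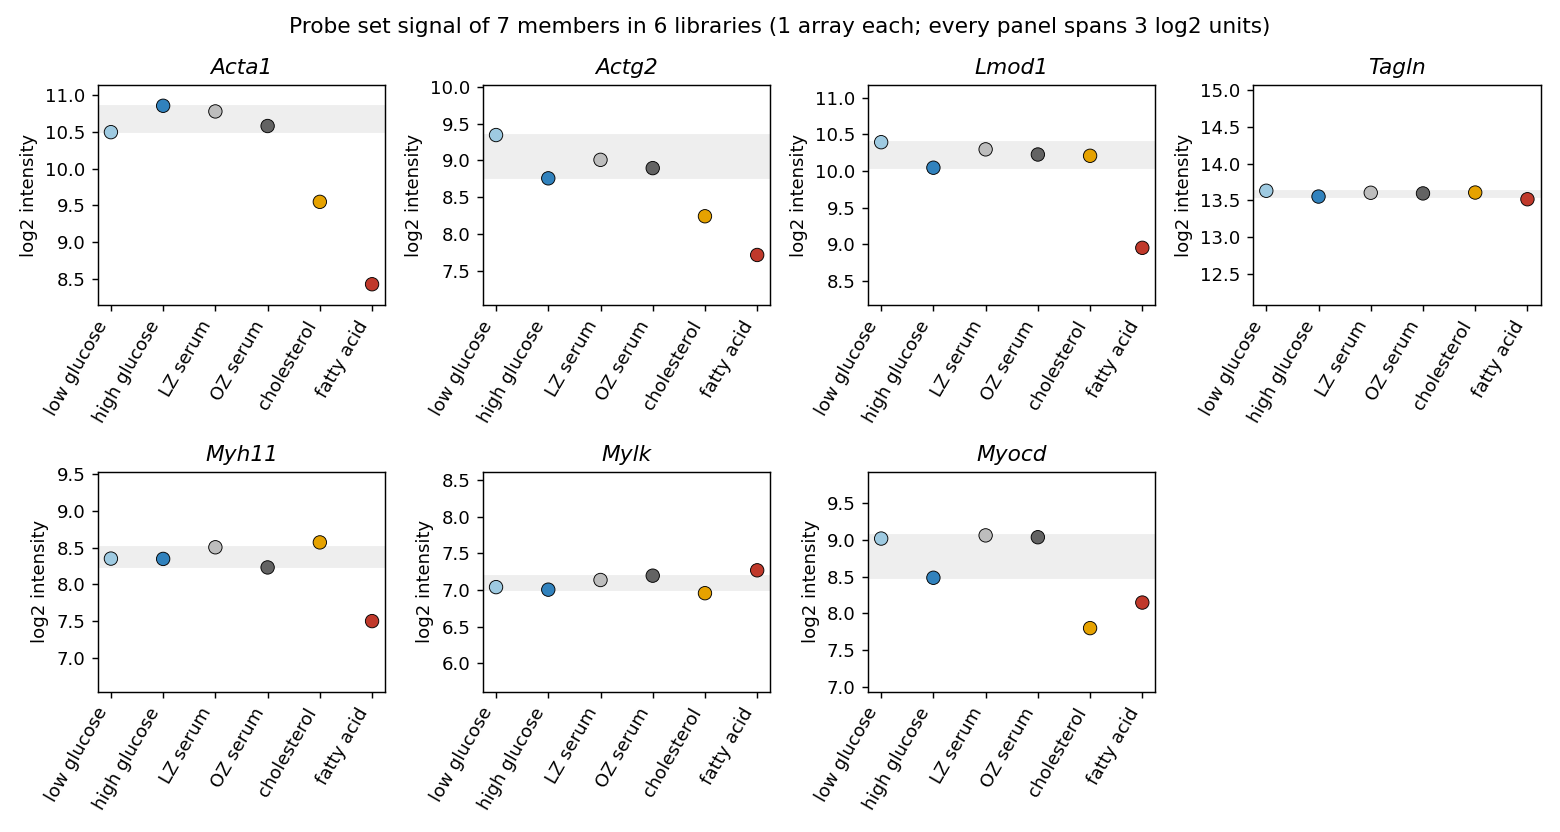
Log2 intensity of each of the 7 members (y axis, 3 log2 units in every panel) in the 6 libraries (x axis), 1 point per array, with the range of the controls and serum libraries shaded. Acta1, Actg2 and Myocd lie below the shaded range with both lipids, Lmod1 and Myh11 lie below it with fatty acid, and Tagln stays within 0.12.

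Myocd, the coactivator, was lower with cholesterol than with fatty acid, as Mylk was. It measured 519 in the low glucose control, 358 in the high glucose control, 534 with LZ serum, 525 with OZ serum, 223 with cholesterol and 283 with fatty acid. Both lipid libraries were below all others, and the high glucose control was the lowest of the libraries without added lipid. Against the nearer control Myocd was 1.61-fold lower with cholesterol (log2 difference -0.69) and 1.26-fold lower with fatty acid (-0.34). Against the low glucose control alone these became 2.33-fold and 1.83-fold. Its order therefore differed from that of Acta1, which was lowest with fatty acid.

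**Figure D2:**
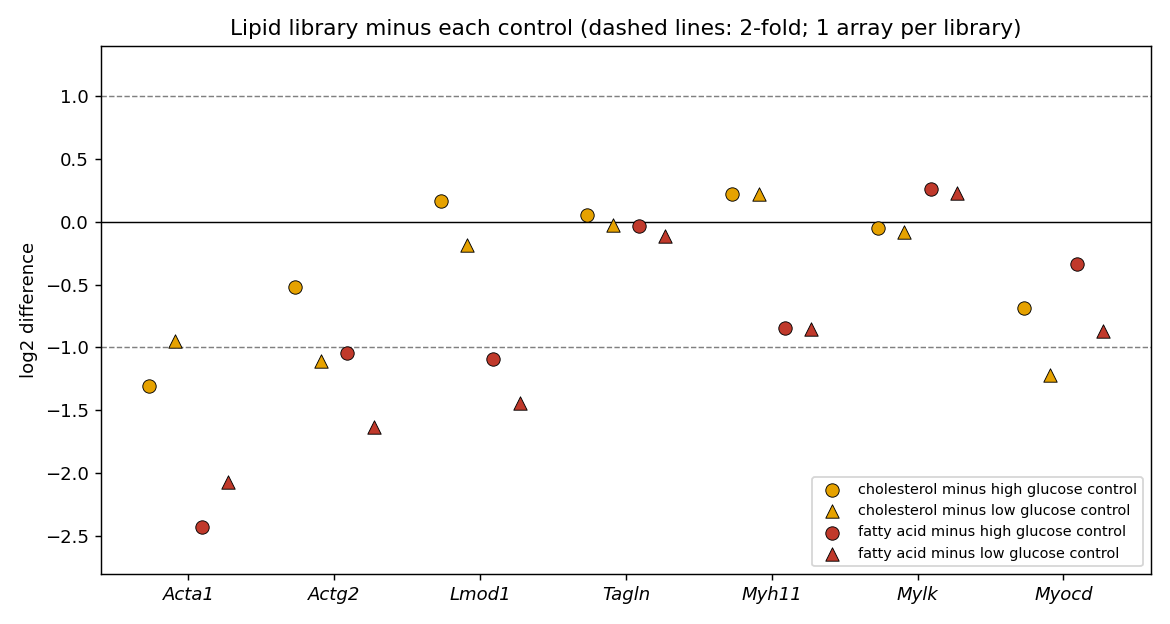
Log2 difference (y axis) of the cholesterol and fatty acid libraries from the high glucose control (circles) and the low glucose control (triangles) for each member (x axis), with dashed lines at 2-fold. All fatty acid points of Acta1, Actg2 and Lmod1 lie below -1, whereas the cholesterol points of Lmod1 and Tagln straddle 0.

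In the fatty acid library, 3 of the 7 members were at least 2-fold lower than both controls, where the share over all 18166 named genes was 1.33%. None was 2-fold higher, where that share was 0.495%. Counting differences of any size, 6 of 7 were lower, against 34.2% of all genes, and Mylk was higher, against 44%. Tagln, the smallest of these differences at -0.04, was at 0 under cyclic loess. The median over the members was -0.85 and the median over all named genes was 0. Each control alone gave the same 3 members, against 2.07% of genes below the high glucose control and 1.86% below the low glucose control, and none was 2-fold higher (0.859% and 0.782%). Against all 4 libraries without added lipid, a reference chosen after seeing the data, Acta1, Actg2 and Lmod1 were again at least 2-fold lower (1.06% of all genes) and none was higher (0.468%). The members were chosen with earlier results of these data known. The shares over all genes, here and below, are therefore a scale for the counts and not independent support.

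In the cholesterol library, none of the 7 members was 2-fold lower than both controls (0.523% of all genes) or 2-fold higher (0.275%). By any size, 4 were lower (34.8% of all genes) and Myh11 was higher (34.5%). The members' median was -0.05, against 0 over all genes. The count depended on the control: Acta1 was 2-fold lower than the high glucose control (0.947% of genes), and Actg2 and Myocd were 2-fold lower than the low glucose control (0.743%), while none was 2-fold higher than either (0.484% and 0.595%). Against all 4 libraries without added lipid none was 2-fold lower (0.418%) or higher (0.237%).

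Cholesterol and fatty acid were also compared directly, which involves no control. Acta1, Lmod1 and Myh11 were at least 2-fold higher with cholesterol, 3 of 7 against 1.31% of all genes, and none was 2-fold lower (0.727%). Actg2 was 1.44-fold higher. Myocd was 1.27-fold and Mylk 1.24-fold lower with cholesterol. By any size 5 members were higher with cholesterol (46.2% of all genes) and 2 lower (53.7%). The members' median was 0.53, against -0.03 over all genes. The doses of both lipids cannot be matched, since none is given for palmitate.

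Glucose alone was accompanied by differences under 2-fold. That of Actg2, at a log2 difference of -0.59, was wider than its difference with cholesterol from the nearer control (-0.52). Against the low glucose control alone, Actg2 with cholesterol was at -1.11. The glucose difference of Myocd, -0.53, was likewise wider than its difference with fatty acid from the nearer control (-0.34). Against the low glucose control alone, Myocd with fatty acid was at -0.87. No member was 2-fold higher (0.193% of all genes) or 2-fold lower (0.0991%) in the high than in the low glucose control. Actg2 was 1.51-fold, Myocd 1.45-fold and Lmod1 1.27-fold lower with high glucose, whereas Acta1 was 1.28-fold higher. By any size Acta1 was the only member higher (48.9% of all genes) and 6 were lower (51%). The members' median was -0.08, against -0.005 over all genes.

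Between OZ and LZ serum the largest difference was that of Myh11, 1.21-fold lower with OZ, followed by Acta1, 1.15-fold lower. No member was 2-fold higher (0.0495% of genes) or lower (0.033%). By any size 6 were lower with OZ serum (52.5% of genes) and Mylk was higher (47.4%). After quantile normalization 2 of these changed sign, Tagln from -0.01 to 0.03 and Myocd from -0.03 to 0.02. When both serum libraries were set jointly against both controls, by the smallest of the 4 differences, no member and no named gene was 2-fold different (0% in both directions). By any size Mylk and Myocd were higher in both (13.5% of genes), Myocd only until each array was centred on its median, and none was lower (17.7%). On the log2 scale Myocd was 0.04 with LZ and 0.02 with OZ serum above the low glucose control.

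Across the 6 libraries, 5 of the 7 members varied by at least 1 on the log2 scale, as did 5.90% of all named genes, whose median range was 0.40. The root-mean-square difference between profiles, each gene first centred on its own mean over the 6 libraries, was used to compare members. Among the varying members Lmod1 and Myh11 were nearest to each other, at 0.20, followed by Actg2 with Lmod1 at 0.29 and Actg2 with Myocd at 0.31. Acta1 was nearest to Actg2, at 0.45, and was 0.63 from Myocd. These distances describe 6 arrays that share 1 scaling and carry no test.

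For each of these 5 members other genes had a nearer profile than any fellow member had. The candidates far outnumbered the fellow members, which makes this likely in advance. Nothing about the members as a group follows from it. Of 859 genes with a range of at least 1 and a mean signal at or above the median, those nearest to Acta1 were Dcdc2 (0.12), Slc7a3 (0.13), an amino acid transporter, and Bmp6 (0.13), a bone morphogenetic protein. Nearest to Actg2 were Pck2 (0.08), the mitochondrial phosphoenolpyruvate carboxykinase, Ephb3 (0.11) and Idh2 (0.11). Nearest to Lmod1 were the ephrin receptor Ephb2 (0.08), Plcb3 (0.08), a phospholipase C, and Ptgfrn (0.10). Those nearest to Myh11 were Ifitm3 (0.04), Adgrl1 (0.05) and Plbd2 (0.06). For Myocd they were Mthfd2 (0.14), an enzyme of mitochondrial folate metabolism, Gpx1 (0.15) and Psat1 (0.15), an enzyme of serine synthesis. Under other scalings or an offset, 12 to 15 of these 15 genes were again among the 3 nearest.

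**Figure D3:**
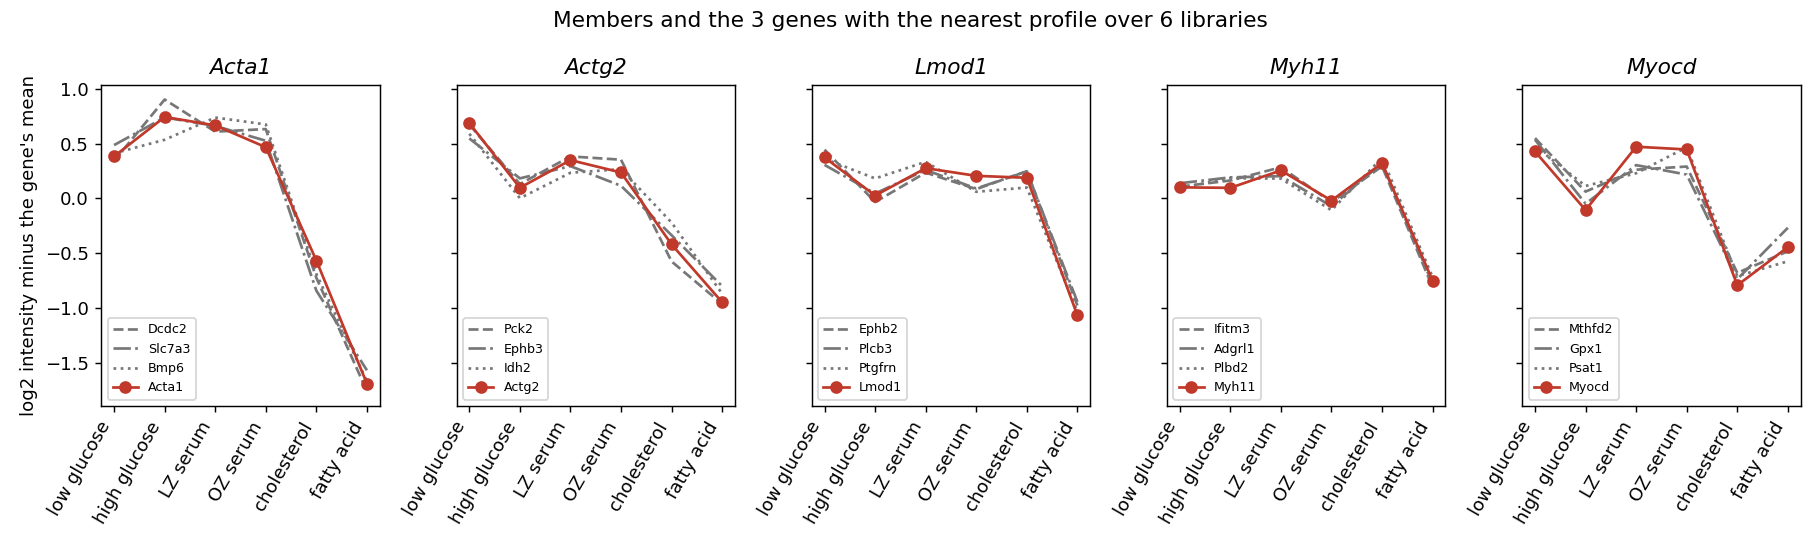
Log2 intensity minus the gene's mean (y axis) over the 6 libraries (x axis) for the 5 members with a range of at least 1 (red points and line) and the 3 genes with the nearest profile (grey lines). Acta1 and Actg2 step down from cholesterol to fatty acid, Lmod1 and Myh11 are low with fatty acid, and Myocd is lowest with cholesterol.

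A wider list of smooth muscle contractile genes, also chosen with earlier results of these data known, held 34 symbols, of which 30 were measured. In the fatty acid library 24 of these were lower than both controls by any size (34.2% of all genes). None was 2-fold higher (0.495%), while 3 were at least 2-fold lower (1.33%). These were Pgm5, a phosphoglucomutase-like protein of cell adhesions (2.32-fold), Nexn, the actin-binding protein nexilin (2.06-fold), and Prkg1, the kinase that relaxes smooth muscle in response to cyclic GMP (2.05-fold). With an offset of 32 before log2, Nexn was at -0.97 and Prkg1 at -0.97, both under 2-fold. The list's median was -0.23, against 0 over all genes. In the cholesterol library none of the 30 was 2-fold higher (0.275% of all genes) or lower (0.523%). By any size 16 were lower (34.8%) and 4 higher (34.5%), with a median of -0.02. Compared directly, Nexn (2.22-fold) and Pgm5 (2.05-fold) were at least 2-fold higher with cholesterol, 2 of 30 against 1.31% of all genes. None was 2-fold lower (0.727%). After quantile normalization Pgm5 was at 0.99.

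SRF cofactors and regulators were measured for 28 of 31 symbols. In the fatty acid library 11 were higher (44% of all genes) and 12 lower (34.2%), with a median of 0. In the cholesterol library 13 were higher (34.5%) and 11 lower (34.8%). In the fatty acid library Klf4, a repressor of smooth muscle genes, was 2.20-fold higher, the only regulator at least 2-fold higher (0.495% of all genes). Its log2 intensity was 11.49 with fatty acid, 10.14 in the low and 10.35 in the high glucose control. Jag1, a Notch ligand, was 4.17-fold lower with fatty acid, the only regulator at least 2-fold lower (1.33% of all genes). Its log2 intensity there was 9.43, where the controls had 11.49 and 11.52. Jag1 was also 2.09-fold lower with cholesterol, at 10.43. No other regulator was 2-fold different with cholesterol (0.523% of all genes lower, 0.275% higher). Hdac5, a histone deacetylase, was 2.10-fold higher with cholesterol than with fatty acid (1.31% of all genes were at least 2-fold higher). Srf and Mrtfa, the myocardin-related coactivator, were looked up after their values were seen. Against both controls Mrtfa was at 0.10 with cholesterol and -0.10 with fatty acid, and Srf at 0.04 and 0. The Srf values depended on the control, since high against low glucose was at -0.42. With cholesterol Srf was at 0.46 against the high and 0.04 against the low glucose control. With fatty acid it was at 0.01 against the high and -0.41 against the low glucose control.

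Cytoplasmic actin and genes driven by myocardin-related factors, 17 measured of 21, included none that was 2-fold different with either lipid. Over all genes 1.33% were 2-fold lower and 0.495% higher with fatty acid, and 0.523% lower and 0.275% higher with cholesterol. At such shares a count of 0 in a short list is not informative. With fatty acid 13 were lower (34.2% of all genes) and 0 higher (44%), with a median of -0.10. With cholesterol 8 were lower (34.8%) and 5 higher (34.5%), with a median of 0. Beta-actin (Actb), named after its values were seen, was at -0.03 with fatty acid and -0.08 with cholesterol. Striated muscle sarcomere genes, 33 measured of 40, had no 2-fold difference in either lipid library, where the same shares over all genes apply. Of them 22 had a mean signal below the median of all values, as did 6626 of all 18166 named genes. In the fatty acid library 13 were higher (44% of all genes) and 13 lower (34.2%) than both controls, with a median of 0. In the cholesterol library 21 were lower (34.8%) and 8 higher (34.5%), with a median of -0.06.

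**Figure D4:**
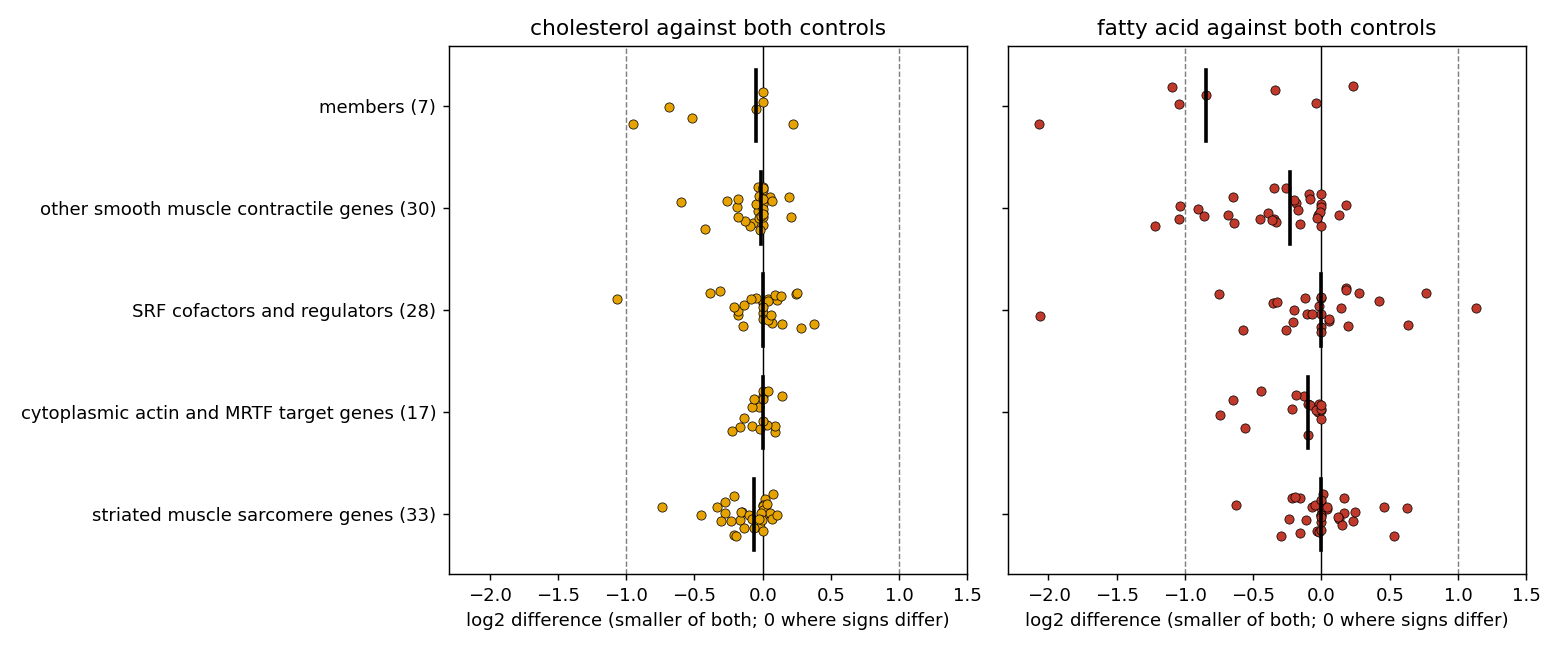
Log2 difference from both controls (x axis, the smaller of both and 0 where signs differ) for the members and 4 gene lists (y axis, number measured in brackets), 1 point per gene with a black bar at the median. Left, cholesterol; right, fatty acid, where the members' median is -0.85 and that of the wider smooth muscle list -0.23.

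The labelled cell type was set beside its markers. For comparison, of all 18166 named genes 10866 lay above the median of all values in every library and 5936 lay below it in every library. Of 7 myoblast markers, Myf5, Myod1, Mymk and Cdh15 lay below the median of all values in every library and Pax7 lay above it in every library, at log2 6.90 to 7.26. Of 10 markers of mesenchymal progenitors and fibroblasts, 7 lay above it in every library. Their summed intensity was 39519 to 42790 in the controls and serum libraries, 35286 with cholesterol and 31118 with fatty acid. The summed intensity of 7 pericyte markers, cells that also express smooth muscle genes, was 9109 to 9967 in the controls and serum libraries, 9309 with cholesterol and 6090 with fatty acid. Most of that lower sum was Pdgfrb, the brightest of the list, at log2 12.68 and 12.74 in the controls and 11.83 with fatty acid. In that list Pdgfrb was at a log2 difference of -0.84 with fatty acid, Mcam at -0.50, Higd1b at -0.28 and Rgs5 at -0.17. Cspg4 was at -0.002, Kcnj8 at 0.33 and Abcc9 at 0.13. Pdgfrb and Cspg4 lay above the median in every library, Abcc9 and Higd1b lay below it in every library, and Rgs5, Kcnj8 and Mcam lay on both sides. Of 5 endothelial markers measured, 4 lay below the median in every library, and of 7 leukocyte markers 5 did, Ptprc among them. The remaining leukocyte markers, Cd68 and Cd14, lay above it in every library. With cholesterol they were at log2 differences of 1.56 and 0.51, and with fatty acid at 0.40 and -0.60. The leukocyte sum was 858 to 1126 in the controls and serum libraries, 1695 with cholesterol and 724 with fatty acid. The myoblast sum was 1254 to 1886 in the controls and serum libraries, 587 with cholesterol and 1523 with fatty acid. The low value with cholesterol was that of Mstn, which was at a log2 difference of -2.88, while each of the other 6 myoblast markers lay between -0.16 and 0. The mesenchymal and pericyte sums were thus both lower in the fatty acid library, as was the leukocyte sum, but not for every marker. In the mesenchymal list Dcn was at 0 and Tcf4 at 0.10, and the pericyte sum was lower mostly through Pdgfrb. The part of these cell types in the result was not tested. In bulk RNA, fewer cells of a type and less RNA per cell cannot be told apart.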

How the data were processed

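The deposited values are linear probe set intensity values, 1 per array. How the authors summarised and scaled them is not given in the sources used here. Array medians ran from 104.6 to 109.2, so the values were used as scaled, and log2 was taken without an offset. In the annotation 18511 probe sets name 1 gene and were used, 575 name several and 17599 have no name. Where 291 genes had more than 1 probe set, the brightest was taken. No signal filter was applied, so that every member counted, and all 7 also pass a filter on mean signal. Actin coding sequences are nearly identical, and since the positions of the probes were not known, cross-hybridisation between actins was not tested. Members, lists and rules were chosen with earlier results of these data known. Named genes were all members, up to 4 genes per list and direction at 2-fold, and the 3 nearest profiles, with exceptions stated. The counting code was checked on simulated data with the same noise for all genes, set from the difference between the controls. How reliably 2-fold differences are found was not judged from it. Alternatives were 3 scalings, 2 signal filters, averaged probe sets, an offset of 32, a 1.5-fold threshold and other references. RefSeq sequences were matched by symbol. Python 3.11.15, numpy 2.4.6, pandas 2.3.3, R 4.3.3 and limma 3.58.1 were used.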

Additional observations from a re-analysis of the deposited data

Results flagged for a closer look

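Myh11 and Mylk stood out because the lipid libraries lay on opposite sides of both controls. Myh11 was at a log2 difference of 0.22 with cholesterol and -0.85 with fatty acid. Mylk was at -0.048 with cholesterol and 0.23 with fatty acid, on a weak signal. Against all 4 libraries without added lipid the sides were the same but Myh11 with cholesterol was at 0.07 and Mylk with fatty acid at 0.07. Both lipids were read against the same controls, there was 1 array each, and the difference was not tested.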

How the results depend on the processing

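The count of members at least 2-fold lower with cholesterol than in both controls, 0, was 1 after median centring, 1 against the high glucose control alone, 2 against the low glucose control alone, 1 against the mean of both controls and 2 at a 1.5-fold threshold. For high against low glucose it went from 0 to 1 at 1.5-fold. For fatty acid the count of 3 became 2 with the offset of 32 and 4 at 1.5-fold. The direct comparison's count of 3 became 2 with that offset and 2 under the stricter signal filter. Of 373 values of single members under an alternative, 14 moved by more than 0.24, the SD over genes of the difference between the controls, and 0 changed direction at 2-fold. Those 14 rest on which control was used. Of 330 values of other genes named from the lists, 2 moved by more. The members' median under the stricter filter, which keeps 5 of 7, was -0.52 for cholesterol and -0.35 for glucose. For OZ against LZ serum, the split over all genes of 9 higher and 6 lower became 6 and 7 after quantile normalization and 6 and 6 under the other scalings. No paired analysis was possible because each group has 1 library. Without replicates, differences near the threshold cannot be told from array noise.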
